A study of Homo sapiens and Homo sapiens
Mus musculus and Mus musculus with 9 samples.

Results

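The nuclear genes for the subunits of respiratory complexes II to V were examined in C4-2B cells, a human prostate cancer cell line, grown alone or mixed with MC3T3-E1 cells, a mouse osteoblast line. Members were the protein-coding rows of the deposited gene table whose symbol names a subunit of succinate dehydrogenase (complex II), cytochrome bc1 (complex III), cytochrome c oxidase (complex IV) or ATP synthase (complex V). This gave 51 genes of 41713, or of 19939 protein-coding genes, with 4 in complex II, 10 in complex III, 17 in complex IV and 20 in complex V. The series held 9 libraries of wild-type cells kept in alpha-MEM with 10% FBS. Of these, 3 came from C4-2B alone, 3 from a co-culture of 1 C4-2B cell per 30 MC3T3-E1 cells and 3 from MC3T3-E1 alone, and the last 3 were not analysed here. Stranded mRNA libraries were read in pairs, and human reads were separated from mouse reads by 3 pipelines (Xenome, XenofilteR and Kallisto). C4-2B is a single established line, so the libraries describe cultures of it and not tumours of several patients. In its co-culture work, the paper uses the name C4-2B for cells labelled with GFP unless it specifies otherwise. It also gives another medium for the routine culture of C4-2B.

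Each level below is the authors' mean over the 6 libraries of C4-2B alone and the co-culture, in normalised read counts (reads divided by the size factor of the library). It has no SD and no n of its own, and levels in the cultures with and without osteoblasts cannot be told apart in it. The text therefore describes which subunit genes the C4-2B reads came from and how far that answer depended on the way reads were counted, and it makes no comparison between the cultures. To compare genes, a mean was divided by the length of the representative transcript in kb.

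Complexes II, III and IV pass electrons from succinate and ubiquinol to oxygen, and complexes III and IV pump protons across the inner mitochondrial membrane while they do so. Complex V lets the protons back through a ring of c subunits, and the rotation drives ATP synthesis in its F1 head. All subunits of complex II are nuclear, while complexes III, IV and V join nuclear subunits to a few that the mitochondrial genome encodes. Several nuclear subunits come in pairs, with a gene used in most tissues and a gene used in muscle, testis or lung, and many have processed pseudogenes, which are intronless copies of the mRNA set back into the genome.

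Members differ in how far short reads can tell them from their copies, and 3 sets of sequences are shown. The first and the last hold stretches that recur elsewhere without a change, while the second encodes a shared peptide in separable sequences. The first set is the complete coding sequence, in DNA letters from GENCODE release 44 transcripts (GRCh38), of the complex III hinge gene UQCRH (ENSG00000173660, chr1:46303698-46316776, + strand, 4 exons) and of its single-exon copy UQCRHL (ENSG00000233954, chr1:15807169-15809348, - strand). Capitals mark the bases of UQCRHL that differ from UQCRH.
UQCRH: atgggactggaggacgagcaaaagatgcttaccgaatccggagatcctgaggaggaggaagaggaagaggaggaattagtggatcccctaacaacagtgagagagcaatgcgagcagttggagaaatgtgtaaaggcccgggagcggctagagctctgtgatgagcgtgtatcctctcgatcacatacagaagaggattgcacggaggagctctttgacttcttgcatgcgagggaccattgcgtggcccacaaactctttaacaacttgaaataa
UQCRHL: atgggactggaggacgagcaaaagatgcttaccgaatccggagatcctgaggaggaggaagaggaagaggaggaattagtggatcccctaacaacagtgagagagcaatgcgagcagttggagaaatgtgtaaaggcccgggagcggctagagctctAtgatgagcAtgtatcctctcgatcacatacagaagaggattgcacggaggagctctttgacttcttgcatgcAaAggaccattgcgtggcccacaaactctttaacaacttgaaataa
The 276 coding bases differed at 4, which were G158A, G167A, G231A and G233A, counted from the first base of the start codon with the UQCRH base first. The encoded proteins of 91 residues differed at 3 residues. The longest identical run of both transcripts was 157 bases, and 70.3% of the 31-base sequences of UQCRHL were also in UQCRH.

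The second set is the end of the coding sequence of the 3 genes for subunit c of ATP synthase, ATP5MC1 (ENSG00000159199, chr17:48892765-48895871, + strand), ATP5MC2 (ENSG00000135390, chr12:53632726-53677408, - strand) and ATP5MC3 (ENSG00000154518, chr2:175176258-175184607, - strand). Their last 77 residues are identical and include the whole mature peptide, while the import sequences before it differ. The stop codon is left out and capitals mark bases that differ from ATP5MC1.
ATP5MC1: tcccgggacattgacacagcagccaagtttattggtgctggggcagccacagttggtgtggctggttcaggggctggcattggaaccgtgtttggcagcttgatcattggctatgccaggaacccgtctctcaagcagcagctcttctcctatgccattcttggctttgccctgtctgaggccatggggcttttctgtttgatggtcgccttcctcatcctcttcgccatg
ATP5MC2: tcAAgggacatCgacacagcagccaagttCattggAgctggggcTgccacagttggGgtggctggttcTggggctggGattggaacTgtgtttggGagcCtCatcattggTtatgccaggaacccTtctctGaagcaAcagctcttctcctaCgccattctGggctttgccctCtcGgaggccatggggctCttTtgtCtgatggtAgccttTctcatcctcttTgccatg
ATP5MC3: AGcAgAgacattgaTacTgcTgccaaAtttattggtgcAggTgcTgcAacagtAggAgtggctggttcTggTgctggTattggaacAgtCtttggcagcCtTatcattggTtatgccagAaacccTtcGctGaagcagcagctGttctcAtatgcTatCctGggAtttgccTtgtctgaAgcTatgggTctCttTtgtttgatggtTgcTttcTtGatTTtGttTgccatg
Over these 231 bases, ATP5MC2 differed from ATP5MC1 at 27 and ATP5MC3 at 46, and no 31-base sequence was shared by any pair of the 3 transcripts. The proteins are thus the same where the mRNAs remain separable by their reads.

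The third set is a single stretch of SDHA (ENSG00000073578, chr5:218241-257082, + strand, 15 exons), the flavin-bearing catalytic subunit of complex II, at coding bases 151 to 215. It is shown because it recurs without a change at 3 further places.
SDHA: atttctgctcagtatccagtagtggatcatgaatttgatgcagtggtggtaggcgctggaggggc
The places were chr3:195662571-195662635 (+ strand) in the pseudogene SDHAP2, chr3:195985725-195985789 (- strand) in SDHAP1 and chr3:197623318-197623382 (- strand) in SDHAP4. Of the 31-base sequences of the SDHA transcript, 43.1% occurred at a further place in the genome.

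The human reads showed high levels of most of the subunit genes. Of the 51 genes, 42 are named usual subunits here, a set that counts the inhibitor gene ATP5IF1 and the supercomplex gene COX7A2L with them. These 42 had Xenome means from 1712 (SDHA) to 64506 (ATP5F1B). Per kb, 38 of the 42 lay in the top 10% of the protein-coding genes that the table lists with a Xenome mean, and 33 lay in the top 5%. Their median was 6160 per kb, beside 455 per kb for protein-coding genes with a mean of at least 50. The other 9 genes are tissue isoforms, an intronless copy in each of complexes III and V, and a read-through gene. Of them COX4I2 had no mean with Xenome or XenofilteR, 7 had means under 50, and UQCRHL alone was higher, at 703.

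All members together took 0.827% of the summed Xenome means, 0.838% with XenofilteR and 0.850% with Kallisto. Protein-coding genes made up 94.7% of the sum with Xenome, 94.6% with XenofilteR and 99.8% with Kallisto, so these shares are not of like totals. Of the protein-coding means alone, the members took 0.874% with Xenome. Complex V gave the largest part, 0.474% of all counts with Xenome, ahead of complex IV with 0.163%, complex III with 0.148% and complex II with 0.0418%. Kallisto kept this order, at 0.473%, 0.159%, 0.152% and 0.0663%, so the share of complex II was higher there. With Xenome, the 40 nuclear complex I genes took 0.340%. The 13 mitochondrially encoded subunit genes took 4.74%, with a median of 167374 per kb, above the highest nuclear member, ATP5F1B, at 36672 per kb. No error can be set on these shares because the table holds pooled means.

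Per kb of transcript, the median level was 3466 in complex II, 3084 in complex III, 5301 in complex IV and 6632 in complex V with Xenome, and 3143 for the nuclear complex I genes. The ranges overlapped, so the complexes were not set apart by their single genes. Among the usual subunits the highest level was 9.49 times the lowest in complex II, 29.6 times in complex III, 11.98 times in complex IV and 20.5 times in complex V. The medians moved with the genes and the length that were used. Over the usual subunits alone they were 3466, 3381, 9475 and 7288 per kb for complexes II, III, IV and V, so that complex IV stood above complex V once its tissue isoforms were left out and complex II stayed above complex III. Per kb of coding sequence, complex II was lowest at 6789, followed by complex III at 10930, complex V at 15243 and complex IV at 15935, so that complexes II and III, and also IV and V, changed places.

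**Figure D1:**
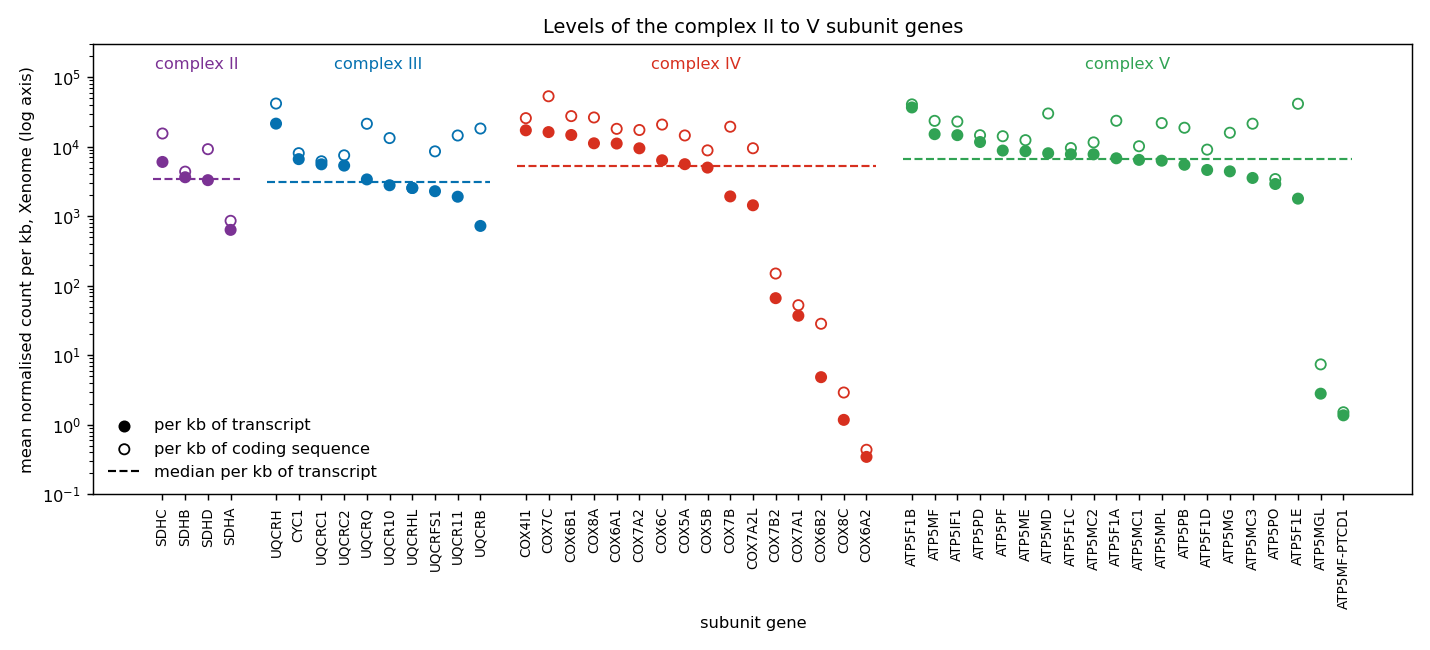
Levels of the 50 members with a Xenome mean, ordered within each complex, as mean normalised count per kb of transcript (filled) and per kb of coding sequence (open) on a log axis, with the median of each complex as a dashed line. The usual subunits lay between 636 and 36672 per kb of transcript, and the 7 genes with means under 50 lay at 66.2 per kb or lower.

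In complex II, the 4 genes did not stand at like levels. SDHC (ENSG00000143252, chr1:161314257-161375340), a membrane anchor that binds ubiquinone and heme, was highest at 6030 per kb. SDHB (ENSG00000117118, chr1:17018722-17054032), which carries the iron-sulfur clusters, reached 3633 per kb, and SDHD (ENSG00000204370, chr11:112086824-112120016), the second anchor, reached 3300 per kb. SDHA was lowest of the 42 usual subunits at 636 per kb, although the complex holds 1 copy of each subunit. Kallisto gave another order. There the SDHA mean was 9734, or 3615 per kb, against 1712 with Xenome and 1716 with XenofilteR, while the SDHB mean was 3652 against 3687. The low place of SDHA was thus seen with both pipelines that align reads to the genome and not with Kallisto.

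In complex III, UQCRH, whose acidic hinge protein helps cytochrome c to dock, was highest at 21450 per kb. CYC1 (ENSG00000179091), the cytochrome c1 that hands electrons to cytochrome c, followed at 6620, and UQCRC1 (ENSG00000010256), a core protein of the matrix side, at 5575 per kb. The lowest were UQCRFS1 (ENSG00000169021), the Rieske iron-sulfur protein, at 2289, UQCR11 (ENSG00000127540), a small subunit, at 1907, and UQCRB (ENSG00000156467), a ubiquinone-binding subunit, at 724 per kb. The place of UQCRB rested on its representative transcript of 8459 bases, of which 336 are coding. Per kb of coding sequence it stood at 18239, above CYC1 at 8062 and UQCRC1 at 6163, while UQCRH kept the highest level of the complex at 41734.

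In complex IV, the 11 usual genes ran from 1436 to 17193 per kb. With Xenome, COX4I1 (ENSG00000131143, chr16:85798633-85807068), the regulatory subunit that binds ATP, was highest at 17193 per kb. COX7C (ENSG00000127184, chr5:86617928-86620962) followed at 16211 and COX6B1 (ENSG00000126267, chr19:35648323-35658782), which faces the intermembrane space, at 14721 per kb. The order turned in the other pipelines. COX6B1 was highest with XenofilteR at 17724 and with Kallisto at 17253 per kb, against 17222 and 16787 for COX4I1. Per kb of coding sequence, with Xenome, COX7C was highest at 53107, against 25723 for COX4I1. The lowest members of the complex were the tissue isoforms COX6A2, COX8C and COX6B2, described with their pairs. COX7A2L, which helps complex III and complex IV to join in supercomplexes, was the lowest gene counted as usual, at 1436 per kb. The next lowest was COX7B at 1926 per kb, and COX7A2, the relative of COX7A2L, stood at 9475. Per kb of coding sequence COX7A2L stood at 9496 and COX7A2 at 17372, so the gap was smaller on that scale.

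In complex V, ATP5F1B (ENSG00000110955, chr12:56638175-56645984), the catalytic beta subunit, was highest at 36672 per kb. ATP5F1A (ENSG00000152234), the alpha subunit that alternates with beta in the F1 head, had a mean count of 39218 against 64506 for ATP5F1B. Per kb of transcript ATP5F1A stood at 6808 and per kb of coding sequence at 23597, against 40570 for ATP5F1B, because its representative transcript holds 5761 bases and 1662 of them are coding. ATP5MF (ENSG00000241468, chr7:99448475-99466331), a membrane subunit, was second at 15130 per kb. ATP5IF1 (ENSG00000130770, chr1:28236109-28246906), which encodes the inhibitor that blocks ATP hydrolysis when the proton gradient falls and is no part of the working enzyme, came next at 14654 per kb. The lowest usual member was ATP5F1E (ENSG00000124172), the epsilon subunit of the F1 stalk, at 1789 per kb of transcript but 41401 per kb of coding sequence. With Xenome means this was the highest value of complex V on that scale, close to the 40570 of ATP5F1B. The other 10 usual members of complex V beside the subunit c genes lay between 2905 (ATP5PO, the stalk subunit that confers oligomycin sensitivity) and 11666 per kb (ATP5PD, the stalk subunit d).

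The 3 subunit c genes gave 17774 per kb together with Xenome, of which ATP5MC2 made up 43.7%, ATP5MC1 36.3% and ATP5MC3 19.97%. XenofilteR and Kallisto kept this order, with ATP5MC3 at 19.3% and 18.8%. Per kb of coding sequence the order turned, with ATP5MC3 first at 49.7% of the sum, ATP5MC2 at 26.8% and ATP5MC1 at 23.6%. The raw mean counts were 9180 for ATP5MC3, 4909 for ATP5MC2 and 4171 for ATP5MC1. Which gene led per kb thus depended on the length used, and read positions along the transcripts were not analysed here.

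The pairs of usual and tissue genes were far apart. COX4I2, the lung isoform of COX4I1, was the only member without a Xenome or XenofilteR mean, and Kallisto listed it at 0 against 12809 for COX4I1. COX6A2, the heart and skeletal muscle isoform, had a Xenome mean of 0.128 against 5959 for COX6A1, and COX8C, known from testis, had 0.637 against 5525 for COX8A. COX6B2, also known from testis, had 7.58 against 7184 for COX6B1 with Xenome and 30.9 against 8419 with Kallisto, and 29.9% of its exon bases lie in exons of an unnamed gene (ENSG00000267706, chr19:55352301-55359516). COX7A1, the muscle isoform of COX7A2, had 12.6 against 4378. COX7B2 was the highest tissue isoform at 36.8 against 4706 for COX7B.

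Per kb, the usual gene exceeded its partner by 14.97 on the log2 scale for COX6A1, 13.22 for COX8A, 11.57 for COX6B1, 7.999 for COX7A2 and 4.86 for COX7B. XenofilteR gave log2 values of 14.97, 13.22, 11.83, 8.02 and 4.85 for the same pairs. Kallisto gave 15.14, 13.28, 9.77, 8.54 and 4.91, so the order of the 5 pairs was the same in all 3 pipelines. The coding sequences of these pairs were identical at 53.9% (COX8A and COX8C) to 78.0% (COX7B and COX7B2) of the longer sequence, and their transcripts shared no 31-base sequence.

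The whole reads behind the low means were solved from the values with Xenome, since a low mean can be split into the few reads of each of the 6 libraries, weighted by their size factors. The solved libraries, A to F by falling size factor, carry no label and belong to no group here. Size factors were 5.93, 5.31, 4.86, 0.427, 0.145 and 0.109, so 1 read of library F added 1.53 to a mean and 1 read of library A added 0.0281. COX7B2 had 157, 177, 165, 16, 9 and 3 reads in libraries A to F, or 527 in all (95% exact Poisson interval 483 to 574). Divided by the size factors, these were 26.5, 33.3, 33.9, 37.5, 62.2 and 27.5, so COX7B2 was read in every library.

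COX7A1 had 73, 50, 58, 11, 1 and 1 reads, or 194 in all (interval 168 to 223), and was also read in every library. COX6B2 had 57, 40, 36, 5, 0 and 1 reads, or 139 in all (interval 117 to 164), with 1 library at 0. COX8C had 4, 1, 3, 1, 0 and 0 reads, or 9 in all (interval 4.12 to 17.1), and without library D, whose single read came to 2.34 when divided by the size factor, its mean was 0.296 in place of 0.637. COX6A2 had 0, 3, 1, 0, 0 and 0 reads, or 4 in all (interval 1.09 to 10.2), so its mean rested on reads of libraries B and C and was 0.0411 without library B. The intervals cover counting error only.

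**Figure D2:**
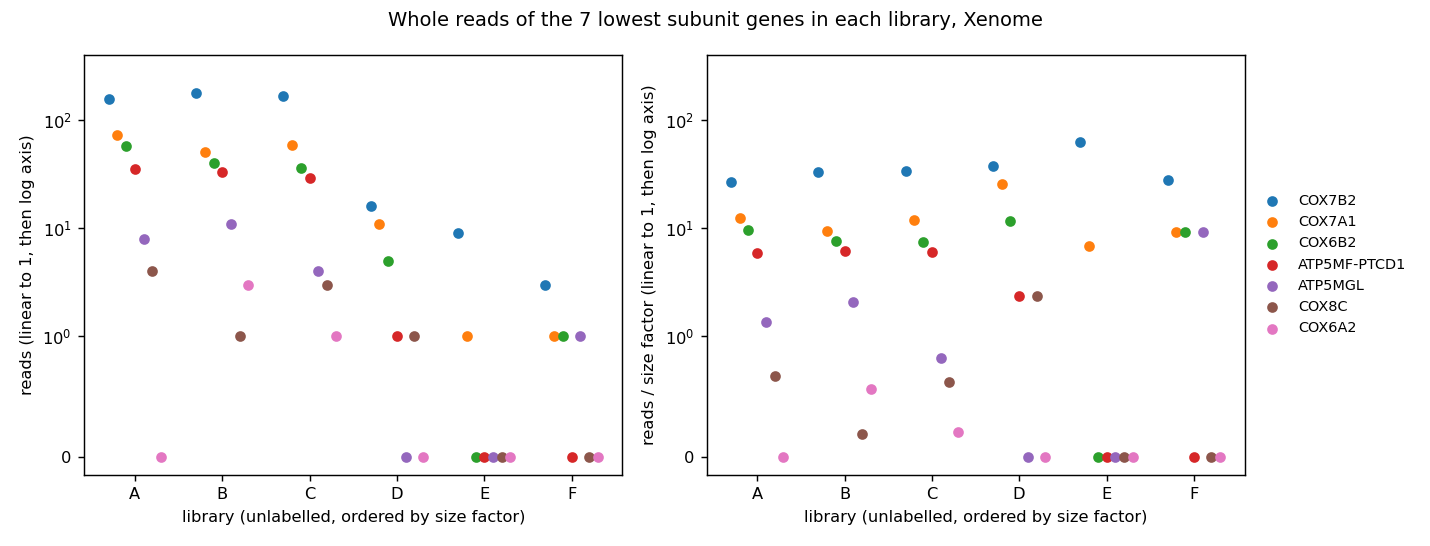
Whole reads (left) and reads divided by the size factor (right) of the 7 members with Xenome means under 50, in the 6 unlabelled libraries behind the means, on axes that are linear up to 1 and logarithmic above. COX7B2 and COX7A1 were read in every library, and the libraries with small size factors held at most 16 reads of any of these genes.

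The other 3 pairs join a usual gene to a gene that shares stretches of its transcript, and for these, as for COX6B2, the pipelines gave different levels. UQCRHL had a mean of 703 with Xenome and 711 with XenofilteR but 50.7 with Kallisto, while UQCRH had 11519, 11565 and 12800. The ratio of UQCRH to UQCRHL per kb was 8.42 with Xenome and 130 with Kallisto. The UQCRHL length behind it is that of a transcript of 276 bases with coding sequence alone, against 2180 bases for the union of its exons, and without division by length the ratio was 16.4 with Xenome and 252 with Kallisto. ATP5MGL (ENSG00000249222, chr22:42639803-42640601, - strand), a single-exon copy of ATP5MG, which encodes a membrane subunit at the dimer interface, went the other way. Its coding sequence was identical to that of ATP5MG at 91.0% of bases, and the transcripts shared 81 of their 31-base sequences, or 10.7% of those of ATP5MGL. It had 2.24 with Xenome and 484 with Kallisto, while ATP5MG had 4951 and 8257. The ratio per kb of ATP5MG to ATP5MGL was 1577 with Xenome and 12.2 with Kallisto. The read-through gene ATP5MF-PTCD1 (ENSG00000248919, chr7:99419749-99466197, - strand), which joins the exons of ATP5MF to those of its neighbour PTCD1, a mitochondrial RNA-binding protein gene, had 3.40 with Xenome and 1529 with Kallisto. All bases of its representative transcript also lie in exons of ATP5MF or PTCD1.

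With Xenome, ATP5MF-PTCD1 had 35, 33, 29, 1, 0 and 0 reads in libraries A to F, or 98 in all (interval 79.6 to 119). ATP5MGL had 8, 11, 4, 0, 0 and 1 reads, or 24 in all (interval 15.4 to 35.7), and divided by the size factor the single read of library F came to 9.18, above the other 5 libraries, which lay between 0 and 2.07. Without library F the ATP5MGL mean was 0.849, so it was set mostly by 1 read.

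**Figure D3:**
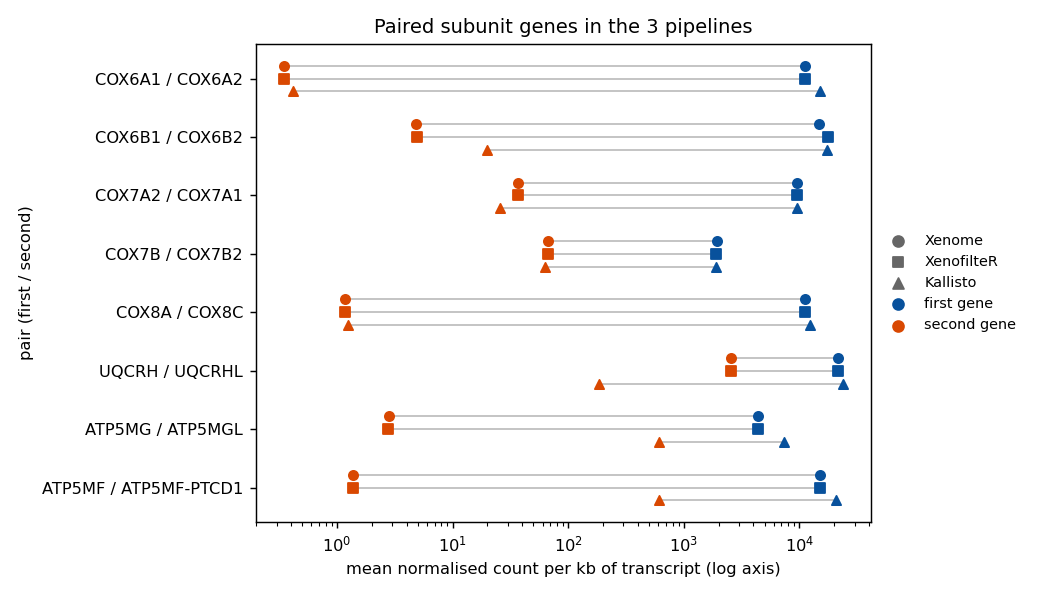
Mean normalised count per kb of transcript, on a log axis, of 8 gene pairs in the Xenome (circle), XenofilteR (square) and Kallisto (triangle) pipelines, with the first gene of a pair in blue and the second in orange; COX4I1 and COX4I2 are left out because COX4I2 was at 0 or not listed. The second gene lay at nearly the same level in all pipelines for COX6A2, COX8C and COX7B2, and moved from 2.80 to 605 per kb for ATP5MGL.

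The pipelines also differed for some usual subunits. Over 11580 protein-coding genes with means of at least 50 in both, the Kallisto mean was 1.02 times the Xenome mean at the median, and the middle 95% of the genes lay between 0.854 and 3.97. The 43 members with a Xenome mean of at least 50 had a median ratio of 1.06, and 5 of them (11.6%) were above 1.5, beside 9.79% of the protein-coding genes. The 5 highest were SDHA at 5.69, ATP5PO at 2.92, UQCR11 at 1.82, ATP5MG at 1.67 and UQCR10, a small subunit of complex III, at 1.65. The 5 lowest were UQCRHL at 0.0722, ATP5F1D at 0.939, ATP5MC3 at 0.943, COX5B at 0.953 and ATP5F1E at 0.955. Apart from UQCRHL, none of these 43 members fell below 0.939.

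Of the 5 members above 1.5, all but UQCR10 share exon bases with another gene on the same strand. In release 44, 69.4% of the SDHA transcript lies in exons of an unnamed read-through gene (ENSG00000286001, chr5:218298-314955), which had a mean of 20.8 with Xenome and 374 with Kallisto. For ATP5PO (ENSG00000241837, chr21:33903453-33915814, - strand) 63.8% lies in exons of ENSG00000249209 (chr21:33584687-33931607), which was not listed with Xenome and had 116 with Kallisto. UQCR11 shares 18.1% with ENSG00000267059 (chr19:1578339-1605445), at 2.75 with Xenome and 521 with Kallisto. ATP5MG shares 24.4% with ENSG00000285827 (chr11:118401602-118482737), at 2.52 and 135.

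Of the usual subunits, 8 shared at least 10% of their exon bases in this way, with a median ratio of 1.55 and a range from 1.096 (COX8A) to 5.69. Of these 8, 7 were above 1.2, beside 18.0% of the 11580 protein-coding genes, whatever their exon sharing. A further 8 shared less but had at least 25% of their 31-base sequences at a further place in the genome, and their median ratio was 1.07, with 2 above 1.2 and SDHC highest at 1.401. The remaining 26 had a median of 0.993, with 2 above 1.2 and UQCR10 highest at 1.65. Across the 42 usual subunits the ratio had a Spearman rho of 0.52 with the share of exon bases in another gene and 0.39 with the share of sequence that recurs in the genome. These are descriptions across genes of the same libraries, with limits of 10% and 25% chosen after the values were seen. Exon sharing, and the ratios of genes that have it, were not analysed over all protein-coding genes. How reads that fit several genes were assigned is not given in the sources used here, and its part in the ratios was not tested.

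**Figure D4:**
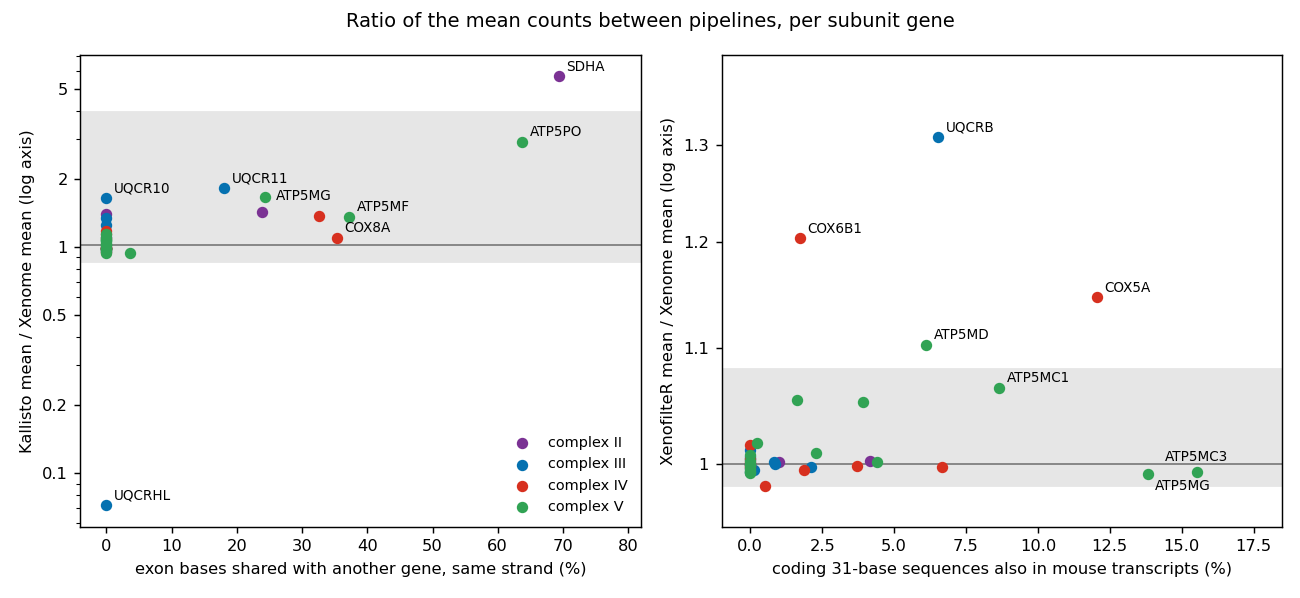
Ratio of Kallisto to Xenome means against the share of exon bases in another gene of the same strand (left), and ratio of XenofilteR to Xenome means against the share of coding 31-base sequences also found in mouse transcripts (right), for the 43 members with a Xenome mean of at least 50; ratio axes are logarithmic, grey bands hold the middle 95% of protein-coding genes and lines mark their median. SDHA at 5.69 and UQCRHL at 0.0722 lay outside the band on the left, and UQCRB, COX6B1, COX5A and ATP5MD lay above it on the right.

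Xenome and XenofilteR, which both count aligned reads but remove mouse reads differently, gave nearly the same means for most members. The median ratio of XenofilteR to Xenome was 1.00 over the 43 members and over the 11580 protein-coding genes. It was above 1.1 for 4 members (9.30%), beside 1.95% of the protein-coding genes. The 4 were chosen by this limit after the values were seen. They were UQCRB at 1.31 (means of 6128 and 8021), COX6B1 at 1.204 (7184 and 8649), COX5A at 1.15 (6568 and 7533) and ATP5MD, a membrane subunit of complex V, at 1.103 (5311 and 5860). For these 4 the Kallisto mean was 1.03, 0.973, 0.999 and 0.991 times the XenofilteR mean, so Xenome, whose means give the levels above, was the lowest of the 3 pipelines.

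The share of their coding 31-base sequences that also occur in mouse transcripts was 6.54% for UQCRB, 1.73% for COX6B1, 12.1% for COX5A and 6.12% for ATP5MD, against a median of 0.173% over the usual subunits and of 1.87% over protein-coding genes with a mean of at least 50, so COX6B1 lay below the latter. ATP5MC3 with 15.5% and ATP5MG with 13.8% had ratios of 0.994 and 0.992. Over the 42 usual subunits the Spearman rho of ratio and share was 0.24, and the part of shared sequence in the ratios was not tested.

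The reads also fell on pseudogenes of the subunit genes. By name, 27 of the 51 members had 80 pseudogenes in the table, all without a Kallisto mean, and 60 of the 80 had Xenome means under 10. The same counts were not made over all protein-coding genes or all pseudogenes, so these are not set against a reference. SDHA stood apart. SDHAP1 (chr3:195959748-195990318), SDHAP3 (chr5:1567495-1594620) and SDHAP4 (chr3:197578213-197627906) had means of 524, 319 and 986 with Xenome, which together were 51.7% of the family's mean count and exceeded the 1712 of SDHA itself. They are listed as transcribed unprocessed pseudogenes, a class apart from the intronless processed copies described above. The place of SDHAP1 holds 620 of the 31-base sequences of SDHA, or 23.3%. That of SDHAP4, which had the highest mean, holds 193, or 7.25%. SDHAP3 holds 420, or 15.8%, in a first stretch and 135, or 5.07%, in another. The part of their counts that came from sequence shared with SDHA was not tested. The place of SDHAP2 holds 554 of these sequences, and its counts were not analysed here.

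In the other families the share was small. By named pseudogenes the next were COX6A1 with 3.74%, UQCRFS1 with 2.44%, ATP5MC2 with 2.15%, SDHD with 1.98% and COX6C with 1.203%, and the median over the 27 families was 0.247%. With XenofilteR, ATP5MC2 stood at 1.41%, below SDHD at 1.98%. Pseudogene rows without a symbol at places that hold the member's sequence changed this order, with SDHD at 5.17%, SDHC at 2.05% in place of 0.101%, UQCRB at 1.23% in place of 0.363% and ATP5PB at 1.04% in place of 0.0451%. The single COX6A1 pseudogene, COX6A1P2 (chr6:37044860-37045189), holds 349 of the member's 31-base sequences, or 68.8%, and had a mean of 232. UQCRFS1P1 (chr22:39875289-39876108), within the span of ENTHD1, holds 870 of the sequences of UQCRFS1 and had a mean of 177. For SDHC and SDHD the place with the highest number of their sequences lies at such an unnamed row. A processed pseudogene at chr17:1858039-1858446 (ENSG00000108958) lies in a stretch with 879 sequences of SDHC, or 68.8% of them, and had a mean of 157 against 7888 for SDHC. Another at chr1:25398721-25399198 (ENSG00000238084) lies in a stretch with 624 sequences of SDHD, or 47.7% of them, and had 152 against 4418 for SDHD. The place of the named pseudogene SDHDP6 holds nearly as many, 604 or 46.1%.

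Shared sequence was common among the members. The share of a transcript's 31-base sequences found at a further place in the genome had a median of 11.4% over the 50 members with a mean, beside 1.65% over protein-coding genes with a mean of at least 50. It was highest in complex II, with a median of 54.9%, followed by complex V with 16.3%, complex III with 9.34% and complex IV with 4.12%. Over the usual subunits alone complexes III and IV changed places, with 5.98% and 11.1%, and within coding sequence they stood at 2.59% and 3.44% over all members. In complex II, SDHC had 75.5%, SDHD 66.8% and SDHA 43.1%, while SDHB had 1.93%. The ratio of Kallisto to Xenome means was 1.401 for SDHC, 1.43 for SDHD, 5.69 for SDHA and 0.991 for SDHB, so the ratios did not follow the order of these shares.

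The labelled cell type was checked by marker genes. The 6 prostate markers given are a part of the fixed list, and some markers of that list are not reported here. These 6 had means of at least 50 in the 3 pipelines, among them KLK3 at 51038 with Xenome. Nothing is drawn from them on the level of the whole list. Of 10 osteoblast markers, 4 had means of at least 50 with Xenome, 5 with XenofilteR and 5 with Kallisto. Their summed means were 4002, 5475 and 3333, against 158669, 160354 and 161928 for these 6 prostate markers. ALPL, SP7, BGLAP, IBSP and POSTN were under 5 with Xenome. COL1A1 made up most of the sum with 3384. The part that mouse reads had in the members' means was not tested.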

How the data were processed

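The mRNA of C4-2B alone and of the co-culture was sequenced, and the authors separated species with Xenome followed by HISAT2 (GRCh38) and featureCounts, with XenofilteR after alignment to both genomes and featureCounts, or with Kallisto on joined human and mouse transcripts. The authors deposited, per pipeline and gene, the mean count divided by size factors over 6 libraries, which was used here, and their own comparison of the cultures in DESeq2 (log2 fold change, standard error, statistic and p-values), which was not used. No test between cultures was therefore run, and levels are described without error. Tool versions and the annotation behind the alignments are not given in the sources used here. Of 41734 rows, 21 that list a gene again were dropped.

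Lengths, exon sharing and 31-base sequences came from GENCODE release 44 and M21 and GRCh38. All 51 members were found in release 44 by gene ID, 44 with the coordinates of the table, and printed gene coordinates are those of the table. Reads were solved where 1 solution existed within the precision of the printed mean. In each alignment pipeline, all of 2000 sampled means under 10 had 1 solution. Means above 10 were not sampled, but COX7A1 and COX7B2, which lie there, also had 1 solution each. Pseudogenes were rows of that biotype named after a member, with blank symbols (of KLK2 too) filled by gene ID from release 44 names. Named were all complex II genes, the 3 highest and 3 lowest per kb of the other complexes, all paired genes, the 5 highest and lowest Kallisto ratios and members with means under 10, and other names were added after their values were seen. Some prostate markers of the fixed list are not reported here. Members and lists were chosen with earlier results of these data known. Alternatives were the other pipelines, other lengths, a minimum mean of 10, a wider tolerance and the usual subunits alone. Computation was in python 3.11.15 with pandas 2.3.3, numpy 2.4.6, numba 0.67.0 and scipy 1.17.1, and plots in matplotlib 3.10.9.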

Additional observations from a re-analysis of the deposited data

How the results depend on the processing

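The median level per kb in complexes II, III, IV and V was 4162, 4029, 5592 and 7638 with Kallisto means and 1546, 2343, 2013 and 2250 with the union of all exons as the length. Coding length, chosen after seeing the data, gave 6789, 10930, 15935 and 15243. With XenofilteR means, complex III moved to 3089, complex IV to 5626 and complex V to 6849. Members with a mean of at least 10 gave 6372 in complex IV and 7288 in complex V. Without tissue isoforms, copies and the read-through gene, the medians were 3381 in complex III, 9475 in complex IV and 7288 in complex V. Complex V had the highest median with Xenome, XenofilteR and Kallisto and with the minimum mean, but not with coding length, exon union length or the usual subunits alone. The members' share of the mean counts was 0.838% with XenofilteR and 0.850% with Kallisto, and with Xenome it was 0.874% of protein-coding means.

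Pairs in which the first gene lay over 100 times above the second numbered 6 with Xenome and XenofilteR, 5 with Kallisto and 7 without division by length. In the 8 pairs with values in each pipeline, the first gene stayed above the second under each pipeline and without division by length. COX4I1 and COX4I2 have no ratio because COX4I2 was at 0 or not listed. The 14 read totals from XenofilteR or with a tolerance 10 times as wide lay within the 95% counting interval of the Xenome total. They rest on the same libraries, so this is no independent check of the totals. Families with over 1% on pseudogenes numbered 6 with Xenome, with XenofilteR and with pseudogenes of at least 10, and 9 once pseudogenes without a symbol were added, an alternative chosen after seeing the data. Of the 43 members with a Xenome mean of at least 50, 5 had a Kallisto ratio over 1.5 against either alignment pipeline. No paired analysis was possible because the table holds means over both cultures. Leaving out 1 solved library in turn, an alternative chosen after seeing the data, moved the mean by over 1.5 times for COX8C (library D), COX6A2 (library B) and ATP5MGL (library F) among the 7 lowest members. Each library has the same weight in a Xenome or XenofilteR mean. Libraries D to F, with Xenome size factors of 0.427, 0.145 and 0.109, thus weigh as much in every level as libraries A to C with 5.93, 5.31 and 4.86. Small size factors also limit the members with the lowest means, where 1 read can set most of the value, as for ATP5MGL at a Xenome mean of 2.24.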
